A study of Drosophila melanogaster with 38 samples.

Results

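The HMG-box chromatin protein genes HmgD, HmgZ, Dsp1 and Ssrp of Drosophila melanogaster were examined for peaks of MSL2, the male-specific subunit of the complex that raises transcription of the male X chromosome. A peak belonged to a gene when it overlapped the gene body or the 1 kb to either side by at least 1 bp, and 9 of the 2508 distinct peaks on X and the autosomes fell at these 4 of 18164 annotated genes. HmgD (FBgn0004362) had 7 peaks and HmgZ (FBgn0010228) had 6, all 6 of which were also peaks of HmgD because the genes are overlapping neighbours on 2R. Dsp1 (FBgn0278608), on X, had 2 peaks, 1 of which also covers the start of a neighbouring gene, and Ssrp (FBgn0010278), elsewhere on 2R, had 0. The genes were chosen by their protein family with the peak lists already known, so the peak counts are a description and no test was made of them.

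The series holds 38 chromatin immunoprecipitation and input libraries from larvae of the third instar, 19 from females and 19 from males, with 1 library for each combination of sex, genotype and target and hence no replicates. The front part of each larva was fixed, and the chromatin was treated with micrococcal nuclease and sonicated. MSL2 was precipitated through a FLAG tag in 2 libraries of msl-2227/msl-2km larvae, 1 from females and 1 from males. Both msl-2 alleles are mutant in these larvae, which carried the transgene UAS-msl-2::3Flag under tub-Gal4, a broadly active driver. The untagged control for the FLAG antibody is msl-2227/km / CyO-GFP ; + / +, and the remaining libraries come from White-eyed (w1118) Oregon-R larvae or from larvae with an msl-2-delta-7/10 chromosome over CyO-GFP or with msl-2-delta-7 over msl-2-delta-10. The values described here are the positions in 3 peak lists that belong to the whole series, an autosomal list, a list named for high-affinity sites (HAS) and a list of other peaks on X. The lists name no library, sex or genotype and carry no usable strength. The read depth behind a peak is therefore unknown, a missing peak means only that none was listed, and a peak's width is the only graded value.

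HMG-box proteins bind the minor groove of DNA and bend it. Those of the HMGB kind do so with little sequence preference and reshape nucleosomal chromatin, whereas others, such as the Sox proteins, bind particular sequences. HmgD and HmgZ are small and abundant fly proteins of the HMGB kind, and HmgD is known for packing the chromatin of the early embryo before the somatic linker histone H1 appears. Dsp1 is the fly relative of mammalian HMGB1 and was first described as a co-repressor working with the factor Dorsal. Ssrp is a subunit of FACT, the chaperone that moves histones out of the path of polymerase, where it pairs with the product of dre4. MSL2 and its partner proteins are known to bind GA-rich sequence at their main sites on X, and for this reason repeats of GA were searched in the peaks, with repeats of CA and runs of A alongside.

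The Dsp1 peaks differed in sequence, one with short and imperfect repeats at a start site and the other over coding sequence nearly without them. The first, here called D1, lay on X from 16333518 to 16333701 (dm6) and covered the main Dsp1 start site. Of its 184 bp, 173 are annotated as untranslated sequence, so only the stretch with the densest repeats is shown, a run of 25 bases that ended 55 bp before the start site. That stretch lies inside the body of the neighbouring gene CG9921, which runs on the opposite strand from its start at 16333600. The second, D2, also of 184 bp, lay from 16336333 to 16336516 in an exon that is coding in all 7 annotated Dsp1 transcripts, and is shown whole. Both are plus-strand sequence of the RefSeq genome of the dm6 assembly, 5′ to 3′, and capitals mark bases inside a match to GAGAGAGA or CACACACA with up to 1 mismatch on either strand.
D1, X 16333533 to 16333557: TCTCGCTCTCcCGCACACACGCACA
D2, X 16336333 to 16336516: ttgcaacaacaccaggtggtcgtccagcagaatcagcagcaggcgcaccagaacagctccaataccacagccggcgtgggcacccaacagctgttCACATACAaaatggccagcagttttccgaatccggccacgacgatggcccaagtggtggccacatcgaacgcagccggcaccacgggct

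In the D1 stretch 10 bases belonged to a GA match, read here as TC on the plus strand, and 14 to a CA match. Over all of D1, 10 bases lay in GA matches and 30 in CA matches. D2 held 0 bases in GA matches and 8 in a CA match, the capitals near the middle of its sequence. A match is a description of the letters and names no bound factor. D1 had a longest uninterrupted GA run of 6 bases and a longest CA run of 7, lengths reached by 32.8% and 35.3% of the other X list respectively. In D2 the longest runs were 3 and 4 bases, which 100% and 95.4% of that list reached or passed. With 0 mismatches, neither peak had a match in the 500 bp around its midpoint, beside 12.6% of that list for GA and 30.4% for CA.

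Among the HMG-box genes, HmgD and HmgZ carried the most peaks. All of these peaks came from the autosomal list. Over all lists together, 14.7% of 15351 autosomal genes had a peak by the same rule. At least 7 peaks, as at HmgD, were found at 10 autosomal genes, 0.0651% of them, and at least 6, as at HmgZ, at 14 genes, 0.0912%. Both genes are among those counts and share 6 peaks, so they stand for one cluster of peaks and not for separate observations. Because the genes were picked with these lists known, the rarity of the counts carries no test. The peaks covered 2429 bp or 14.1% of the HmgD body with 1 kb to either side, and 2189 bp or 17.7% of the same window at HmgZ. More of the window was covered at 110 of 11749 protein-coding autosomal genes than at HmgD and at 64 than at HmgZ.

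**Figure D1:**
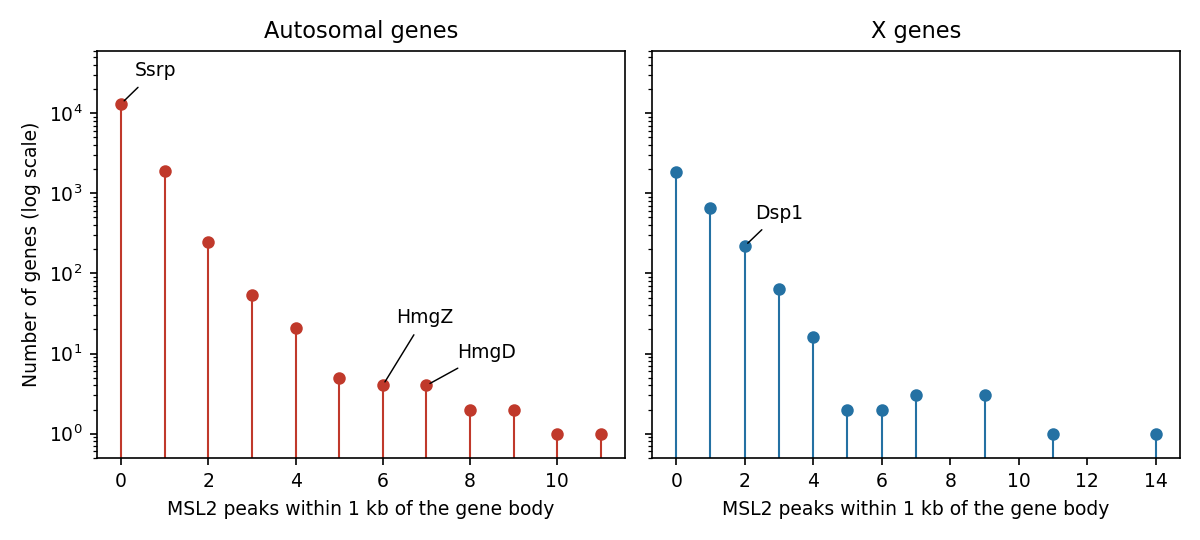
Number of genes (vertical axis, log scale) by the number of MSL2 peaks overlapping the gene body or 1 kb to either side (horizontal axis), for autosomal genes at left and X genes at right. HmgD with 7 and HmgZ with 6 peaks lie in the sparse tail of the autosomal genes, Dsp1 with 2 lies among 310 X genes with at least as many, and Ssrp is one of the many genes with 0.

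The 14 autosomal genes with at least 6 peaks had a median body length of 45.4 kb, while HmgD spans 15270 bp and HmgZ 10374 bp. Per kilobase of body plus 1 kb to either side, HmgZ had 0.485 peaks and HmgD 0.405, the highest and second highest values among the 14 genes, whose median was 0.154. They were also the shortest of the 14, and a shorter window gives a higher value for the same count. The values per kilobase were not set beside those of all autosomal genes. By the covered share of the window, tara led with 23.6%, ahead of HmgZ and HmgD, and the median of the 14 genes was 5.54%. The other 11 genes of this set were InR, the insulin receptor, with 11 peaks, the ecdysone-response genes Eip74EF and Eip75B with 9 each, mam and psq with 8 each, CG3764, grh and sbb with 7 each, and EcR, the ecdysone receptor, osa and tou with 6 each. The set is described here with the lists known and no function was tested.

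The bodies of HmgD, from 21701458 to 21716727 on the plus strand of 2R, and HmgZ, from 21697488 to 21707861 on the minus strand, overlap over 6404 bp. That overlap is 41.9% of HmgD and 61.7% of HmgZ, and each gene begins inside the other. The peaks are numbered H1 to H7 from low to high coordinates. H1 lay from 21700378 to 21700610 and was 233 bp wide. H2, from 21702962 to 21703367, was 406 bp, and H3, from 21704506 to 21704981, was the widest at 476 bp. These 3 peaks flank the first HmgD start site and the downstream start sites of HmgZ. H4, from 21705890 to 21706275, was 386 bp wide. H5, from 21706828 to 21707235, was 408 bp, and H6, from 21708413 to 21708692, was 280 bp. H6 lies just beyond the most distal HmgZ start site, and the remaining peak stands apart at the other end of HmgD. H7, from 21714609 to 21714928, was 320 bp wide.

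**Figure D2:**
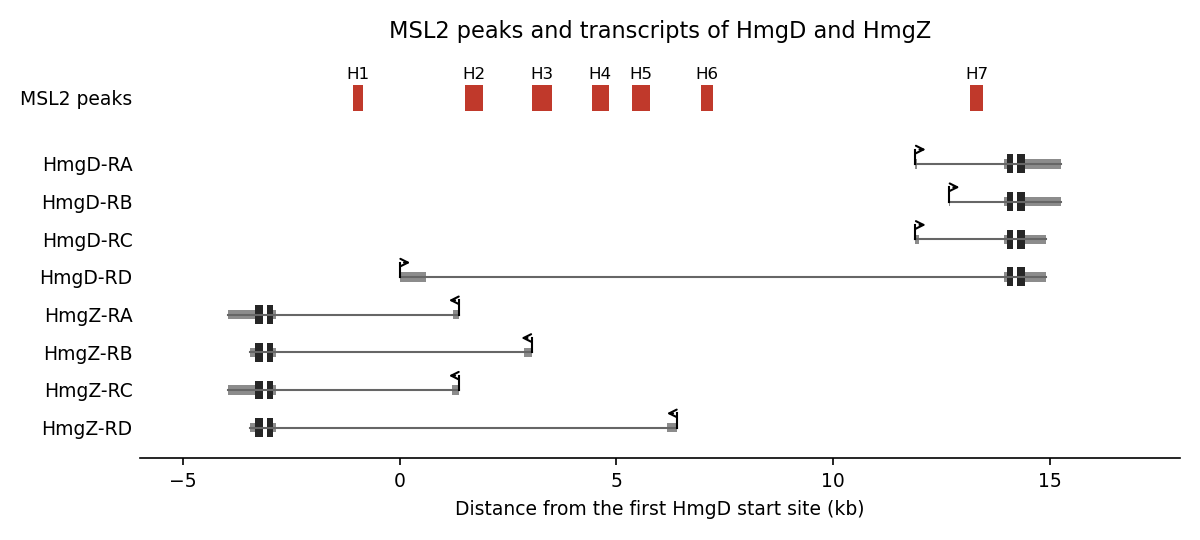
MSL2 peaks (red boxes) above the 4 annotated transcripts of HmgD and of HmgZ, against distance from the first HmgD start site in kb. Thin lines are introns, grey boxes untranslated exons, black boxes coding exons and arrows start sites with their direction. H1 to H6 cover the region where the genes overlap and its edges, and H7 stands 5916 bp further on.

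All 7 peaks lay outside the coding sequence of both genes. By their midpoints, 4 of them, H2 to H5, were intronic in both genes at once. H1 was intronic in HmgZ and upstream of HmgD, H6 was intronic in HmgD and upstream of HmgZ, and H7 was intronic in HmgD alone. The intron of 13341 bp in the longest HmgD transcript, HmgD-RD, held H2 to H7, that is 6 peaks. The intron of 9024 bp in the longest HmgZ transcript, HmgZ-RD, held H1 to H5, that is 5 peaks. The shorter transcripts held fewer. H7 lay in the introns of 2018, 1239 and 1971 bp of HmgD-RA, HmgD-RB and HmgD-RC, H1 and H2 lay in the 5722 bp intron of HmgZ-RB, and only H1 lay in the introns of 4076 and 4072 bp of HmgZ-RA and HmgZ-RC.

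The HmgD and HmgZ peaks lay close together. Peaks gathered at overlapping genes are bound to do so, and their gaps and spans are given as a description only. The gaps between neighbouring peaks, from H1 to H7, were 2351, 1138, 908, 552, 1177 and 5916 bp, with a median of 1157.5 bp. In the autosomal list the median gap was 21.7 kb, and 262 of 1664 gaps, 15.7%, were at most 2500 bp, as were 5 of the 6 gaps here. The limit of 2500 bp was not set in advance. H1 to H6 together spanned 8315 bp, and of 1645 runs of 6 consecutive autosomal peaks 1 was shorter. That run, of 5199 bp, lay 0.555 kb from the end of 3R and within 1 kb of no annotated gene. The 7 peaks together spanned 14551 bp, and 2 of 1641 runs of 7 were shorter, both at a locus on 3L that includes CG3764 and peaks of other genes. The median span was 233.9 kb for 6 peaks and 290.1 kb for 7. Below the cluster the next peak was 12.0 kb from the HmgZ body, and above it the next was 359.2 kb from the HmgD body. The group was thus far from other peaks on its upper side. Both distances start at gene bodies, whereas the median gap of the list runs from peak to peak. Below the cluster the next peak ended at 21685472 and H1 began at 21700378, a gap shorter than that median. The long gap between H6 and H7 holds CG30403 (FBgn0050403), a protein-coding gene inside the HmgD intron from 21709895 to 21711613, which had 0 peaks within 1 kb. The noncoding gene lncRNA:CR44749 (FBgn0265962) lies between H6 and CG30403, and its start site was 903 bp from the edge of H6, its only peak.

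The position of the peaks relative to start sites differed between HmgZ and HmgD. HmgZ has 3 start sites, and each had a peak on its upstream side. At 21702830, the start of HmgZ-RA and HmgZ-RC, the edge of H2 was 132 bp upstream. At 21704501, the start of HmgZ-RB, H3 began 5 bp upstream, and at 21707861, the start of HmgZ-RD, H6 was 552 bp upstream. These starts lie within the group of peaks, so each also had a peak on its downstream side. At 21707861 the downstream peak was H5, 626 bp away. HmgD also has 3 start sites, none of which had a peak as near on the upstream side. At 21701458, the start of HmgD-RD, H1 was 848 bp upstream. At 21713356, the start of HmgD-RA and HmgD-RC, the nearest peak was H7 at 1253 bp downstream, and at 21714136, the start of HmgD-RB, H7 was 473 bp downstream. Over all protein-coding genes, 1845 of 15977 autosomal start sites, 11.5%, had a peak edge within 500 bp, against 3 of the 6 start sites of these genes.

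A peak was called a promoter peak when its midpoint was within 500 bp of an annotated start site. H2, with its midpoint 335 bp upstream, and H3, at 243 bp upstream, met this, 2 of the 7 peaks, beside 66.5% of the autosomal list. The order turned with the distance allowed, since within 1 kb 6 of the 7 peaks were counted, beside 75.9% of the list. The midpoint of H6 was 692 bp upstream and that of H5 829 bp downstream of the same distal HmgZ start site. H1 had its midpoint 964 bp upstream and H7 633 bp downstream of HmgD start sites, while H4 was the farthest at 1582 bp. In the autosomal list 1110 peaks were promoter peaks, their midpoints had a median distance of 65 bp from the start site, and 56.5% were on its upstream side. H2 and H3 were thus both farther from their start sites than the middle of that distribution.

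Width was the only graded value that the lists themselves gave for a peak. In the autosomal list the median width was 234 bp, with 117 peaks at the minimum of 150 bp and a maximum of 4763 bp. H3 was wider than 87.7% of that list and ranked 206 of 1669. H5 was wider than 84.4%, H2 than 84.2% and H4 than 82.7%, so the 4 peaks that were intronic in both genes were also the 4 widest. H7 was wider than 72.9%, H6 than 64.2% and H1 than 49.5%. The median of the 7 peaks was 386 bp. None was an extreme of the list, and the share of sequence covered at these genes came from the number of peaks and not from a single broad one.

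**Figure D3:**
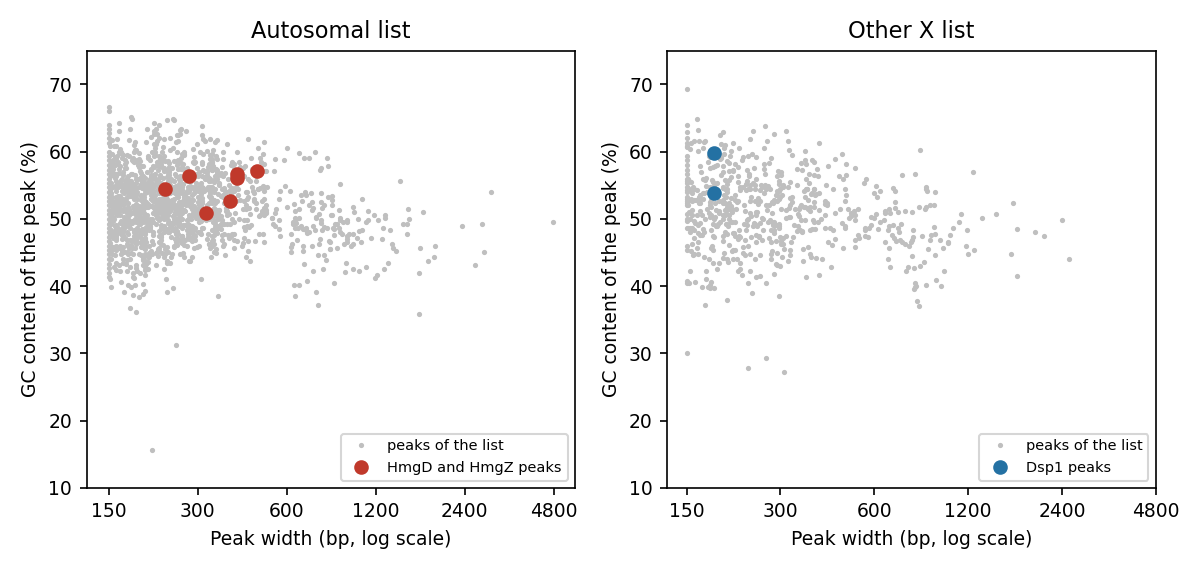
GC content of each peak (vertical axis, percent) against its width (horizontal axis, bp, log scale) in the autosomal list at left and the other X list at right, with the HmgD and HmgZ peaks in red and the Dsp1 peaks in blue. The 7 red points lie between 233 and 476 bp and between 50.9% and 57.1% GC, and both blue points lie at 184 bp.

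The HmgD and HmgZ peaks were rich in G and C within a locus that was not. Their GC content was 54.5% in H1, 56.7% in H2, 57.1% in H3, 52.6% in H4, 56.1% in H5, 56.4% in H6 and 50.9% in H7, with a median of 56.1%. The median of the autosomal list was 51.9%, and only H7 was below it. Outside the peaks, the 21.2 kb that hold both genes with 1 kb to either side had a GC content of 40.1%. For the list as a whole, the 500 bp around a midpoint exceeded the mean of the peak-free windows 2 kb to either side by a median of 4.10 percentage points, and it was higher at 70.0% of peaks. All 6 of the peaks here with a peak-free flank exceeded theirs, and H3 had none. At H2 and H5 only 1 of the flanking windows was free of peaks, so their values rest on that window alone. The excess was 10.5 points at H1 and at H4, 12.1 points at H6 and 16 points at H2. It was 18.5 points at H7 and 19.8 points at H5, larger than at 96.7% and 97.8% of the list.

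Repeat content was read in the 500 bp around each midpoint, with up to 1 mismatch on either strand. GAGAGAGA had a match in 5 of the 7 peaks, against 48.8% of the autosomal list, 25.3% of its 3128 flanks and 74.8% of the HAS list. Counting every position at which the word matched, H2, H4 and H7 had 3 matches each, H1 and H6 had 1, and H3 and H5 had 0. CACACACA had a match in 6 of the 7 peaks, against 65.1% of the list and 40.4% of the flanks. H3 had 5 such matches, H2 had 4, H4, H5 and H6 had 2, H7 had 1 and H1 had 0. H2 and H4 were the peaks with several matches of both words, and H1, the narrowest, had a single match of either. Longer words of 12 bp gave the opposite order, with 0 of the 7 peaks for either repeat beside 10.8% of the list for GA and 23.8% for CA. Runs of A, searched as AAAAAAAA, went the other way, with a match in 2 of the 7 windows, 3 matches at H1 and 4 at H7, against 74.7% of the list.

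Within the locus outside the peaks, 30 windows of 500 bp were read for the same words. GAGAGAGA had a match in 10 of them, 33.3%, and CACACACA in 13, 43.3%. AAAAAAAA had a match in 26, 86.7%, whereas the peaks H2 to H6 had none. The low count of A runs in the peaks stood beside their higher GC content, and the part of GC content in it was not tested. The longest uninterrupted GA run was in H2, at 10 bases, a length that 64 peaks, 3.83% of the autosomal list, reached or passed. The longest CA runs were 8 bases, in H2, H4 and H6, reached or passed in 416 peaks, 24.9% of the list. The repeats at these genes were otherwise short, with runs of at most 7 GA bases in H7 and 6 in H1, and 5 or fewer in the others.

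**Figure D4:**
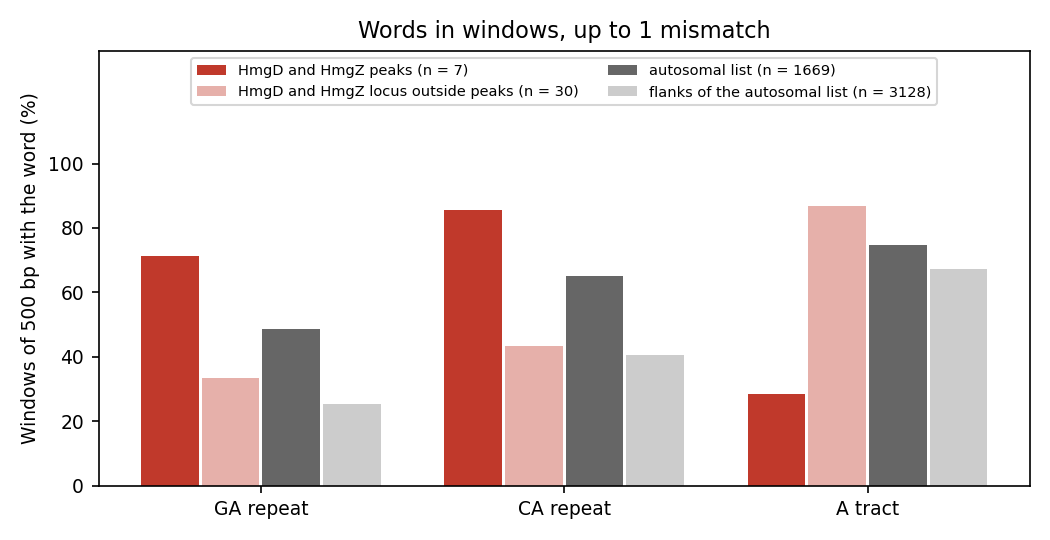
Share of 500 bp windows (vertical axis, percent) that hold each word with up to 1 mismatch, for the 7 HmgD and HmgZ peaks, the windows of the same locus outside peaks, the autosomal list and its flanks. The 7 peaks held the GA and CA words in 71.4% and 85.7% of windows and the A run in 28.6%, while outside peaks the locus held them in 33.3%, 43.3% and 86.7%.

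Dsp1, from 16333612 to 16340624 on the plus strand of X, carried far fewer peaks than HmgD and HmgZ, on a chromosome where peaks were common. The difference was smaller per kilobase of body plus 1 kb to either side, with 0.222 peaks at Dsp1, 0.405 at HmgD and 0.485 at HmgZ. Of 2813 X genes, 34.2% had a peak and 310 genes, 11%, had at least 2, as Dsp1 did. A total of 91 X genes had more. Its peaks covered 368 bp, 4.08% of the window, and 523 of 2196 protein-coding X genes were covered more. Both peaks came from the other X list and none from the HAS list. The nearest HAS interval, 153 bp wide at 16356747 to 16356899 beside sl and U2af50, was 23.0 kb from D1 and 20.2 kb from D2. The median distance of the other X list to a HAS interval was 23.6 kb, so Dsp1 lay at a middling distance. Both Dsp1 peaks were 184 bp wide, wider than 24.7% of the other X list, whose median was 249.5 bp.

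Both Dsp1 peaks sat at or near start sites. D1 contained the start site at 16333612 that 6 of the 7 transcripts share, with its midpoint 2 bp upstream. It also contained the start site of CG9921 (FBgn0030743), a gene on the opposite strand whose start lies 12 bp away at 16333600, so D1 cannot be given to either gene. D2 began 149 bp downstream of the start at 16336184 of the remaining transcript, Dsp1-RF, and its midpoint was 241 bp downstream. The 2 start sites are 2572 bp apart and the midpoints of the peaks 2815 bp. On X, 66.6% of the other X list were promoter peaks, and 852 of 3275 start sites of protein-coding genes, 26.0%, had a peak edge within 500 bp.

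**Figure D5:**
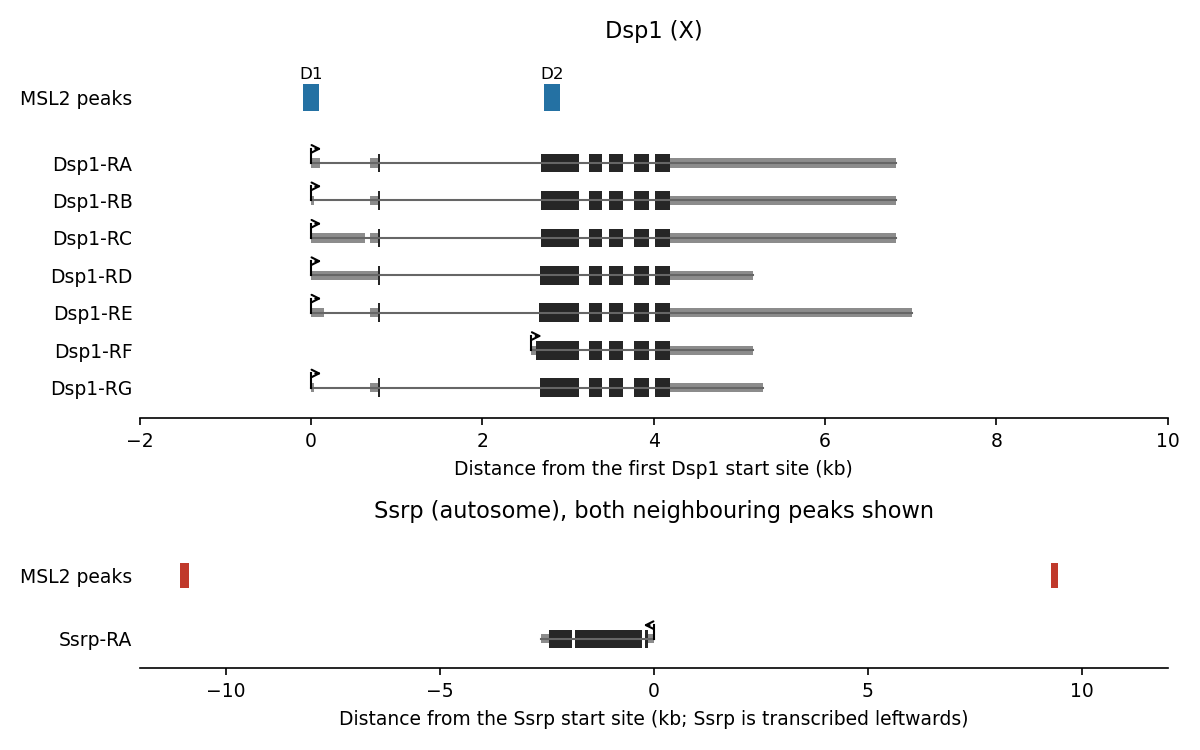
MSL2 peaks of the other X list (blue) and of the autosomal list (red) above the annotated transcripts of Dsp1 and Ssrp, against distance from the first start site in kb. Thin lines are introns, grey boxes untranslated exons, black boxes coding exons and arrows start sites with their direction. D1 covers the shared Dsp1 start site, D2 lies in a coding exon just past the start of Dsp1-RF, and the peaks nearest to Ssrp are 8.20 and 9.27 kb from its body.

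The sequence of the Dsp1 peaks, shown above, differed between them in repeats and in base composition. In the 500 bp around the midpoint D1 had 3 matches to the GA word and 6 to the CA word, while D2 had 0 and 1. Over the other X list the shares of windows with a match were 42.6% and 61.0%, and in its 1233 flanks 25.1% and 43.0%. The GC content was 53.8% in D1 and 59.8% in D2, the latter higher than in 94.1% of that list, against 36.7% in the Dsp1 window outside both peaks. D2 exceeded the mean of its flanks by 20 percentage points and D1 by 7.00, where the median of the list was 1.25. D2 lies in an exon, and how much of its GC content belongs to coding sequence as such was not tested.

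Ssrp, from 23806361 to 23809004 on the minus strand of 2R, is a compact gene of 2644 bp with 1 annotated transcript and 1 start site. It had 0 listed peaks, as did most autosomal genes. The nearest peaks were 8.20 and 9.27 kb from its body, so it stayed without a peak in a window of 5 kb. Its window had a GC content of 50.6%, and of the 9 windows of 500 bp read there 4 had a match to the GA word, 5 to the CA word and 3 to the A run. Repeat words were thus found at Ssrp without a listed peak. A window of 4.64 kb gives less room for a peak than the 17.3 kb of HmgD, and the count was not corrected for length.

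Across the 4 genes, the 1 kb limit of the rule decided little. The farthest peaks that it admitted were H1, 848 bp from the HmgD body, and H6, 552 bp from the HmgZ body. The nearest that it left out was H7, 6.75 kb from the HmgZ body, followed by the peak 8.20 kb from Ssrp. Over all 9 peaks the median width was 320 bp and the median GC content 56.1%. In all, 8 were above the GC median of their own list and 4 were promoter peaks. In the 500 bp around the midpoint, with up to 1 mismatch, 6 had a match to the GA word, 8 to the CA word and 2 to the A run. Read in the whole peaks instead, the counts were 5, 8 and 1. Only the windows of H7 and H1, at the opposite ends of the HmgD and HmgZ group, held an A run.

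Other genes that encode an HMG box were given from a list set by family membership. Of 16 such genes 8 had a peak, both genes on X among them, with 12 peaks summed over genes. Of all protein-coding genes 19.8% had one, 16.3% on the autosomes and 38.1% on X. The count of 8 fell to 6 with the gene body only, and to 6 within 1 kb of a start site. It was also 6 with peaks at least as wide as the median of their list. It was not corrected for gene length. On X, bbx had 3 peaks, 2 of the other X list and 1 HAS interval, covering 17.0% of its window, and Bap111, a subunit of the Brahma remodelling complex, had 1 of 346 bp. On the autosomes Sox14 had 2 peaks and Sox21b had 2, of which 1 was a HAS interval. The repressor gene cic and the Sox genes SoxN and D had 1 each, at a promoter in each case, of 644, 541 and 514 bp. TFAM, the packaging protein of mitochondrial DNA, had 1 peak at the minimum width of 150 bp, and it lay at no TFAM start site. The testis genes tHMG1 and tHMG2, polybromo, pan, Sox15, Sox21a, Sox100B and Sox102F had 0. No other gene of the list reached the counts of HmgD or HmgZ.

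Among 13 genes for histone chaperones and abundant chromatin proteins, 3 had a peak, both genes on X and 1 of the others, beside the 19.8% of all protein-coding genes, 16.3% on the autosomes and 38.1% on X given above. These were Spt6, an elongation factor and histone chaperone gene on X, with 2 peaks covering 5.05% of its window, Caf1-180, a chromatin assembly factor subunit on X, with 1 peak of 163 bp, and Set, on 3R, with 1 peak of 657 bp covering 17.7%. The FACT partner gene of Ssrp, dre4, had 0 peaks, so neither FACT gene had a listed peak. The 10 genes with none also include Nap1, asf1, both other Caf1 subunit genes, Nlp, Nph, BigH1, the gene of heterochromatin protein HP1a and D1, the gene of an AT-hook protein that is unrelated to the peak D1. Of 23 annotated His1 genes, which encode the linker histone and lie in near-identical repeats, 1 had a peak, of 162 bp. That peak covered only 1.22% of the window of the gene and was not within 1 kb of its start site. Reads of such repeats cannot be placed with certainty, and the His1 count is uncertain.

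The genes most like each member were taken as those with the same number of peaks, the same kind of chromosome and the nearest covered share. For HmgD there were 3 candidates that share no peak with it, CG3764 with 9.23% of its window covered, grh with 4.72% and sbb with 2.06%, against 14.1% at HmgD. For HmgZ there were also 3, osa with 11.0%, tou with 5.18% and EcR with 1.82%, against 17.7%. The nearest matches were thus 4.83 and 6.66 percentage points below HmgD and HmgZ, and no candidate had as much of its window covered. For Dsp1 there were 193 candidates, and inc with 4.03%, B-H2 with 3.95% and schlank with 4.26% lay within 0.181 points of it. By this measure Dsp1 had many near matches, whereas HmgD and HmgZ had few and distant ones. The number of candidates follows from requiring the same peak count, which few autosomal genes had. By covered share alone, 110 protein-coding autosomal genes exceeded HmgD and 64 exceeded HmgZ.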

How the data were processed

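The authors deposited 3 MSL2 peak lists as positions. The deposited score column of the autosomal list held the single value 0, so peaks could not be ranked by strength. According to the submitters' processing notes, MACS2 (2.1.1.20160309.0), Bowtie2 (2.3.0.1) and bedtools were used with dm6 and BDGP6, while their roles, the control, the threshold and any pooling are, for these lists, not given in the sources used here. Start positions were made 1-based, 11 repeated HAS rows were counted once and 16 autosomal rows on Y or unplaced scaffolds were left out. Genes came from Ensembl release 115, and sequence came from the RefSeq genome, in which 30540 of 30593 annotated start codons read ATG and 0 intervals passed a chromosome end. Overlaps, words and medians were computed in Python 3.11.15 with numpy 2.4.6, and figures were drawn with matplotlib 3.10.9. Counting was tested on simulated peaks and words. The members and lists were chosen with earlier results of these data known, and no test was made. Named genes were the members, genes with a start site within 1 kb of their peaks, list genes with a peak (at most 8 of each list) and the 3 most like each member. The genes with at least 6 peaks, CG30403, sl, U2af50 and the list genes with 0 peaks were named after their values were seen. Alternatives changed the window, overlap, width, joining of peaks, promoter distance and word settings.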

Additional observations from a re-analysis of the deposited data

How the results depend on the processing

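HmgD kept 6 or 7 peaks, HmgZ 5 or 6 and Ssrp 0 under every alternative tried, including the RefSeq gene body, which was chosen after seeing the data. A value was called moved when it differed more than 1.5-fold from the reported one, or when either was 0 and the other was not. Of 58 alternative values over 16 results, 13 moved. By that limit a change from 9 to 6 distinct peaks, with wide peaks only, did not count as moved. The values are not independent, since HmgD and HmgZ share peaks, and those of Ssrp were all 0. Restricted to peaks at least as wide as the median of their list, Dsp1 had 0 peaks and the chaperone and His1 lists together 2 genes in place of 4. Promoter peaks numbered 1 within 200 bp and 8 within 1 kb, in place of 4. For the HmgD and HmgZ peaks this was 0 of 7 within 200 bp beside 53.9% of the autosomal list, and 6 of 7 within 1 kb beside 75.9%, so the side on which they fell relative to the list reversed at 1 kb. With 0 mismatches the GA word was left in 1 of the 9 peaks, the CA word in 2 and the A run in 1. A word of 12 bp left 0 for GA and 1 for CA, and at HmgD and HmgZ 0 for both, beside 10.8% and 23.8% of the autosomal list, so that their share was then below and not above the list. Windows of 200 bp left 5 for CA, and whole peaks left 1 for the A run. Within 5 kb the covered share was 10.7% at HmgZ and 2.16% at Dsp1. In the autosomal list 0 mismatches left the GA word in 11.8% and the CA word in 28.9% of windows, beside 1 and 2 of the 7 HmgD and HmgZ peaks. No paired analysis was possible because the peak lists name no library. Depth, strength and the libraries behind each list are unknown, so a gene without a listed peak may still be bound.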
